A study of Mus musculus with 8 samples.

Results

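The genes described here are those of the carnitine shuttle and of carnitine synthesis, chosen by symbol: Cpt1a, Cpt1b, Cpt2, Crat, Slc25a20, Slc22a5, Bbox1, Aldh9a1 and Tmlhe. Of these 9 genes, 8 had a row among the 16540 genes of the deposited count table, and all 8 were abundant enough to be tested. Tmlhe was not analysed here. The samples were livers of male Apoe-/- mice, which lack apolipoprotein E and develop high plasma cholesterol, on a Western diet that the study's methods describe as high in cholesterol. After a period on the diet, 4 mice received isoginkgetin (ISOGK) at 20 mg/kg/day by intraperitoneal injection for 8 weeks, and 4 received vehicle, labelled DMSO in the count table, over the same 8 weeks. ISOGK is a biflavonoid that the study examines as an inhibitor of ATP citrate lyase, the enzyme that makes cytosolic acetyl-CoA from citrate. The age of the mice was not given in the sources used here. Every mouse was labelled Apoe-/- and shared the diet, so the comparison is of ISOGK with vehicle within that model. Apoe had 3252 to 4963 counts in the vehicle and 3598 to 6489 counts in the ISOGK libraries, so the genotype rests on the labels. The labels number the samples but do not say that each came from its own animal, so the p-values measure the spread between these samples. Totals ran from 19605286 to 24461854 counts in the vehicle libraries and from 17457106 to 21626399 in the ISOGK libraries. ISOGK mouse 4 stood apart from the other ISOGK mice: the chi-square per gene between their libraries was 85.3 to 100 for its pairs and 33.4 to 67.2 for the others, and the acute-phase gene Saa2 had 52155 counts in it against 592 to 2895 in the other libraries. Without that mouse the same 6 of the 8 genes described below were called higher in edgeR's test (adjusted p from 0.00427 to 0.0194).

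Carnitine is the small carrier molecule on which long-chain fatty acids enter the mitochondrial matrix to be oxidized. Cells take it up through the plasma membrane transporter OCTN2 (Slc22a5) or make it from trimethyllysine in a series of steps that includes TMLHE, ALDH9A1 and BBOX1, the last of them active mainly in liver and kidney. At the outer mitochondrial membrane a carnitine palmitoyltransferase 1 (CPT1A in liver, CPT1B in muscle) joins the fatty acid to carnitine, the carrier CACT (Slc25a20) takes the acylcarnitine across the inner membrane, and CPT2 hands the fatty acid back to coenzyme A. Carnitine acetyltransferase (Crat) does the same exchange with acetyl and other short-chain groups. Several shuttle genes are textbook targets of PPAR alpha, the nuclear receptor that binds with RXR to a direct repeat of the half-site AGGTCA spaced by a single base.

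The letters upstream of the genes were examined for that repeat. RefSeq promoter entries on build GRCm38.p6 were matched for 6 of the 9 genes (Cpt1a, Cpt2, Slc25a20, Slc22a5, Bbox1 and Aldh9a1). The 250 bases before each start were searched on both strands for the closest match to this repeat (AGGTCA, any base, then AGGTCA again), and no other motif was searched. The windows of Slc22a5, a gene that was higher in ISOGK livers, and of Aldh9a1, a gene that was not called, are shown because they hold no annotated exon and lie at opposite ends of the range of matches. Capitals mark the closest match.
Slc22a5: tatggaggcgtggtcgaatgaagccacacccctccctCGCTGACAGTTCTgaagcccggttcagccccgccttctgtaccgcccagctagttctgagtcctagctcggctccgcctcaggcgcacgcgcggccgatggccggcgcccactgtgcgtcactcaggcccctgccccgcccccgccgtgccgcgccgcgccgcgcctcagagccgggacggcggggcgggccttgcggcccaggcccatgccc
Aldh9a1: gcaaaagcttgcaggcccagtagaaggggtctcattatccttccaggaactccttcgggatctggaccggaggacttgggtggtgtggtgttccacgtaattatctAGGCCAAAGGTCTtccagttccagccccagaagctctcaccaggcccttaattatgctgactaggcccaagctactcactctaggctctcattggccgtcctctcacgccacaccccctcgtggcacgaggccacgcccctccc
The Slc22a5 window lies at chr11:53891704-53891953 on the minus strand and the Aldh9a1 window at chr1:167349741-167349990 on the plus strand. The Aldh9a1 match differed from the repeat at 2 positions and began 144 bases before the start, and the closest Slc22a5 match differed at 5 positions. Bbox1 held a match with 3 mismatches, AGAACAAAGGTCC, at 88 bases before the start, Cpt1a and Slc25a20 had 4 mismatches at best, and Cpt2 had 5. Each start here is that of the RefSeq entry, which can differ from the end of the gene span given below. The Bbox1 window (chr2:110305726-110305975, minus strand) and the Cpt1a window (chr19:3323051-3323300, plus strand) lie inside those spans. The bases before the spans of Bbox1 and Cpt1a were thus not searched. Of 32851 RefSeq windows of this length, 3.24% held a match with at most 2 mismatches and 21.3% one with at most 3. The 2 genes with the closest matches were the 2 not called. The 4 others with a window were all higher in ISOGK livers. Bases outside these windows were not searched, and the called genes Cpt1b and Crat had no window. A poor match here therefore does not show that a gene lacks the repeat, and its part in the calls was not tested. A match in these letters is a description and not a binding site.

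The shuttle genes were higher in the ISOGK livers and the synthesis genes were not called. Cpt1a, Cpt1b, Cpt2, Slc25a20, Crat and Slc22a5 rose, by 1.49-fold to 10.5-fold, while the mice of both groups overlapped for Bbox1 and Aldh9a1. In edgeR's quasi-likelihood test with Benjamini-Hochberg adjustment over all 12307 genes tested, 6 of the 8 members were higher at an adjusted p under 0.05, against 4.11% of all genes tested, and 0 were lower, against 3.44%. The count of members lower was also 0 at an unadjusted p under 0.05, with DESeq2 and with limma-voom, and both tools also called 6 members higher. With the study's further threshold of a log2 fold change over 1, 3 members remained (Cpt1b, Crat and Slc22a5), against 0.999% of all genes. For these 6 members every ISOGK mouse was above every vehicle mouse, which held for 7.92% of all genes. With libraries scaled by their totals alone this held for the same members except Cpt1a, an alternative chosen after seeing the data. The median log2 fold change was 0.72 over the 8 members and 0.0018 over all genes tested. The members were chosen with earlier results of these data known, so setting them beside all genes is a description and not a test. Levels are given as counts per 1000000 counts of a library (CPM) after TMM scaling, which adjusts library totals for the few genes that take up much of them.

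**Figure D1:**
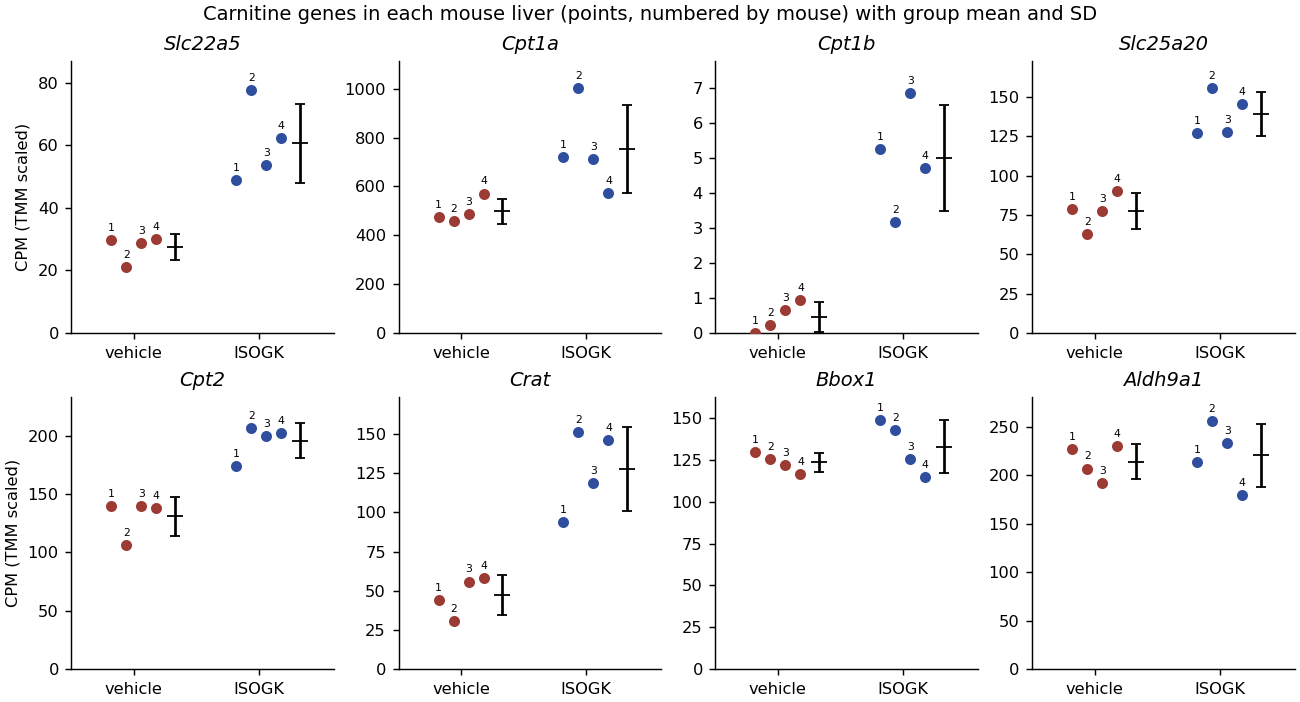
CPM (scaled by TMM) on the vertical axis, starting at 0, of the 8 measured genes in each vehicle (red) and ISOGK (blue) mouse, with the mouse number above each point and the group mean and SD beside them. The groups were apart in the upper row and in Cpt2 and Crat, by the least in Cpt1a (570.8 against 572.8 CPM, overlapping when scaled by totals alone), and overlapped in Bbox1 and Aldh9a1.

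Slc22a5 encodes OCTN2, the sodium-dependent transporter that brings carnitine into the cell. Its level was 29.7, 21.1, 28.6 and 30.1 CPM in vehicle mice 1 to 4 and 48.8, 77.7, 53.7 and 62.3 CPM in ISOGK mice 1 to 4. The groups did not overlap, vehicle mouse 2 was the lowest of all and ISOGK mouse 2 the highest. The mean went from 27.4 ± 4.21 to 60.6 ± 12.7 CPM (SD, n = 4 each), a fold of 2.21 (95% interval 1.75 to 2.81), with a log2 fold change of 1.15 (SE 0.16) and an edgeR adjusted p of 0.00185. Without vehicle mouse 2 the log2 fold change was 1.04 and without ISOGK mouse 2 it was 1.01, with edgeR adjusted p of 0.00621 and 0.00386. Slc22a5 lies on chromosome 11 (53864542 to 53891660, minus strand, GRCm38), where GENCODE shows no other gene over its span.

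Cpt1a encodes the liver isoform of carnitine palmitoyltransferase 1, the step that malonyl-CoA inhibits. By mean it was the most abundant member per exon length in both groups, though not in every mouse. Its counts were 9459, 11604, 12460 and 12780 in the vehicle libraries and 14678, 19006, 12593 and 10932 in the ISOGK libraries, which is 475, 459, 485 and 571 CPM against 720, 1003, 712 and 573 CPM. The groups touched without overlapping, since ISOGK mouse 4 was only just above vehicle mouse 4, and ISOGK mouse 2 was far above the rest. The mean went from 497 ± 50.1 to 752 ± 181 CPM, a fold of 1.51 (95% interval 1.20 to 1.90), with a log2 fold change of 0.60 (SE 0.15) and an edgeR adjusted p of 0.0371. This call was lost on leaving out any of 5 mice: the edgeR adjusted p was 0.100, 0.118 and 0.0936 without vehicle mouse 1, 2 or 3, and 0.0504 and 0.0808 without ISOGK mouse 1 or 2. Over the mice left out in turn the log2 fold change ran from 0.43 (without ISOGK mouse 2) to 0.71 (without ISOGK mouse 4, adjusted p = 0.0128). It was also lost when libraries were scaled by their totals alone (0.47, adjusted p = 0.0998), where ISOGK mouse 4 (505.5 CPM) fell within the range of the vehicle mice. Cpt1a lies on chromosome 19 (3322334 to 3385733, plus strand).

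Slc25a20 encodes CACT, the carnitine-acylcarnitine carrier of the inner membrane. Vehicle mice had 79.0, 62.9, 77.7 and 90.4 CPM and ISOGK mice had 127, 156, 128 and 146 CPM. The lowest ISOGK mouse was well above the highest vehicle mouse. The mean went from 77.5 ± 11.3 to 139 ± 13.9 CPM, a fold of 1.80 (95% interval 1.50 to 2.15), with a log2 fold change of 0.84 (SE 0.12) and an edgeR adjusted p of 0.00185. Slc25a20 lies on chromosome 9 (108662088 to 108684641, plus strand).

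Cpt2 encodes the matrix-side enzyme that returns the fatty acid to coenzyme A. Vehicle mice had 140, 106, 139 and 138 CPM and ISOGK mice had 174, 207, 200 and 202 CPM. Vehicle mouse 2 stood below 3 nearly equal vehicle mice, and all 4 ISOGK mice were above them. The mean went from 131 ± 16.6 to 195 ± 14.9 CPM, a fold of 1.49 (95% interval 1.26 to 1.77), with a log2 fold change of 0.58 (SE 0.11) and an edgeR adjusted p of 0.00953. Without vehicle mouse 2 the log2 fold change was 0.49 with an edgeR adjusted p of 0.0302. Cpt2 lies on chromosome 4 (107903981 to 107923610, minus strand).

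Crat encodes carnitine acetyltransferase, which moves acetyl and other short-chain groups between coenzyme A and carnitine. Vehicle mice had 44.1, 30.4, 55.8 and 57.9 CPM and ISOGK mice had 93.6, 152, 119 and 147 CPM. No ISOGK mouse was within the range of the vehicle mice, although Crat varied more among vehicle mice than the other members did, Cpt1b apart (coefficient of variation 26.9%). The mean went from 47.1 ± 12.6 to 128 ± 26.9 CPM, a fold of 2.71 (95% interval 1.94 to 3.80), with a log2 fold change of 1.44 (SE 0.22) and an edgeR adjusted p of 0.00503. Crat lies on chromosome 2 (30400471 to 30415813, minus strand) and shares exon bases with 2 genes on the other strand, 411 with the antisense gene Gm16323, which was not analysed here, and 59 with Dolpp1, a gene of dolichol metabolism. Dolpp1 had 7.75 ± 0.852 CPM in vehicle and 8.13 ± 0.559 CPM in ISOGK mice (log2 fold change 0.069, edgeR adjusted p = 0.788), a level below that of Crat in either group.

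Cpt1b, the muscle isoform, was barely detected in vehicle livers and was found in every ISOGK liver. Its counts were 0, 6, 17 and 21 in vehicle mice 1 to 4 and 107, 60, 121 and 90 in ISOGK mice 1 to 4. The groups were far apart, but all of these counts were low. In CPM the mean went from 0.459 ± 0.420 to 4.99 ± 1.52, a fitted fold of 10.5 (95% interval 4.46 to 24.9), with a log2 fold change of 3.40 (SE 0.55) and an edgeR adjusted p of 0.00727. The size of this change depended on the method, since limma-voom gave a log2 fold change of 4.16 (adjusted p = 0.0101). As a share of all counts of the Cpt1 genes (Cpt1a, Cpt1b and the brain isoform Cpt1c), Cpt1b was 0% (exact 95% binomial interval up to 0.0390%), 0.0517%, 0.136% and 0.164% in the vehicle mice. In the ISOGK mice it was 0.723%, 0.315% (interval 0.240% to 0.405%), 0.951% (0.790% to 1.14%) and 0.816%. The intervals reached up to 1.14% in ISOGK mouse 3 and cover counting error only, and the shares leave out any Cpt1b reads counted to the overlapping gene described next.

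The locus of Cpt1b limits what its count can say. Cpt1b (chromosome 15, 89416405 to 89425863, minus strand) starts 496 bases after Chkb, which encodes choline kinase beta and is transcribed in the same direction. The annotated read-through gene Gm44502 joins the 2 and shares 2744 of the 3372 exon bases of Cpt1b (81.4%). It also shares 1552 of the 3061 exon bases of Chkb (50.7%). The counting could thus split reads between Gm44502 and either gene. Gm44502 had 50, 65, 46 and 51 counts in vehicle and 97, 111, 59 and 81 counts in ISOGK mice, a log2 fold change of 0.99 (SE 0.21, edgeR adjusted p = 0.0147). Chkb had 305, 382, 383 and 378 counts in vehicle and 516, 542, 453 and 556 in ISOGK mice, a log2 fold change of 0.80 (SE 0.10, edgeR adjusted p = 0.000908). All 3 features were thus higher in the ISOGK livers with no overlap between the groups. Summed over Cpt1b and Gm44502, the counts were 50, 71, 63 and 72 in vehicle and 204, 171, 180 and 171 in ISOGK mice. This sum, chosen after seeing the data, rose by a smaller fold of 3.47 (95% interval 2.80 to 4.29, edgeR adjusted p = 5.09e-05). With Chkb added as well the fold was 2.01 (95% interval 1.76 to 2.29, edgeR adjusted p = 0.000108). Most counts of this last sum came from Chkb, so it says little on Cpt1b. The direction held for the sum of Cpt1b and Gm44502, while the fold of Cpt1b itself, read alone, is uncertain.

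**Figure D2:**
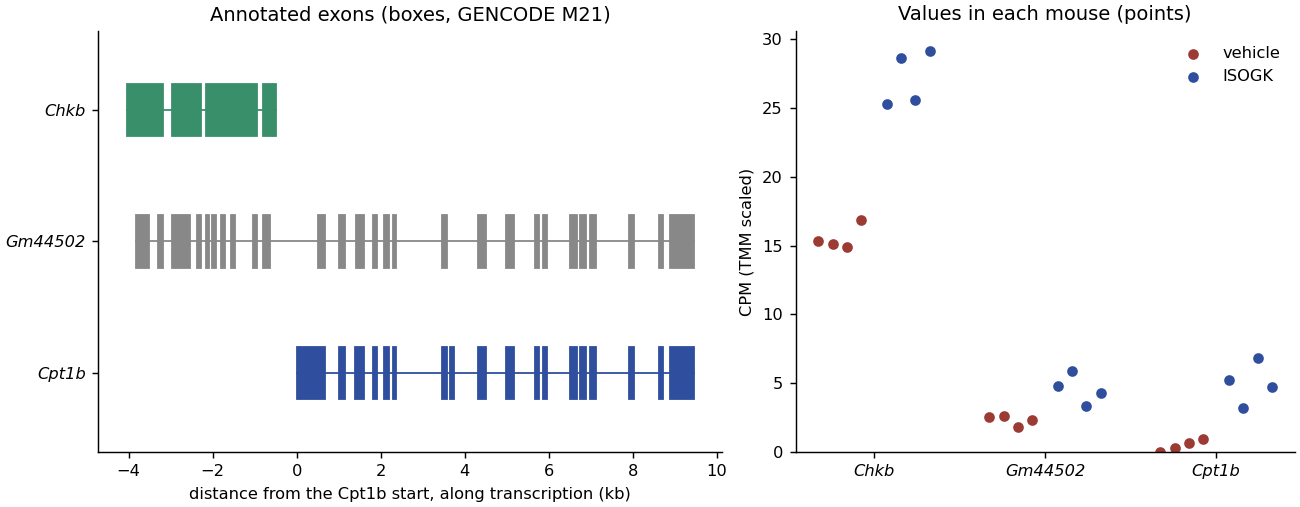
Left, annotated exons (boxes) of Chkb, the read-through gene Gm44502 and Cpt1b against the distance in kilobases from the Cpt1b start along the direction of transcription. Right, CPM (TMM scaled) of the 3 features in each vehicle (red) and ISOGK (blue) mouse, where the blue points lie above the red ones for each feature and most Cpt1b boxes coincide with Gm44502 boxes.

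Bbox1 encodes gamma-butyrobetaine hydroxylase, the last step of carnitine synthesis. Vehicle mice had 130, 126, 122 and 117 CPM and ISOGK mice had 149, 143, 126 and 115 CPM. The groups overlapped, with ISOGK mouse 4 the lowest of all 8. The mean was 124 ± 5.63 CPM in vehicle and 133 ± 15.7 CPM in ISOGK mice, with a log2 fold change of 0.11 (SE 0.10) and an edgeR adjusted p of 0.558. The 95% interval of the fold, 0.926 to 1.25, bounds the difference that these libraries leave possible. Bbox1 lies on chromosome 2 (110262697 to 110314560, minus strand).

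Aldh9a1 encodes the aldehyde dehydrogenase that makes gamma-butyrobetaine, the substrate of BBOX1, and also oxidizes other amino-aldehydes. Vehicle mice had 227, 207, 192 and 230 CPM and ISOGK mice had 214, 256, 234 and 180 CPM. ISOGK mice were both the highest and the lowest of the 8. The mean was 214 ± 17.8 CPM in vehicle and 221 ± 32.4 CPM in ISOGK mice, with a log2 fold change of 0.044 (SE 0.12), an edgeR adjusted p of 0.858 and a 95% interval of the fold from 0.863 to 1.23. The sign of this small difference was not stable, turning to -0.035 without ISOGK mouse 2 and to -0.0049 without vehicle mouse 3. Aldh9a1 lies on chromosome 1 (167349991 to 167368532, plus strand).

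Levels of different genes were compared per kilobase of annotated exon. In vehicle livers Cpt1a (65.1 ± 6.56 CPM per kb), Aldh9a1 (63.3 ± 5.26) and Cpt2 (54.7 ± 6.96) were the most abundant, and each overlapped the next in that order. Bbox1 followed at 28.1 ± 1.28 and Slc25a20 at 16.0 ± 2.33 CPM per kb, neither overlapping its neighbours. Slc22a5 at 8.91 ± 1.37 and Crat at 8.73 ± 2.35 CPM per kb did not differ beyond their spread, and Cpt1b was far below at 0.136 ± 0.125. In ISOGK livers Cpt1a stood at 98.4 ± 23.6, Cpt2 at 81.8 ± 6.24 and Aldh9a1 at 65.3 ± 9.57 CPM per kb. Cpt2 thus stood above Aldh9a1 by mean, though their mice still overlapped. Bbox1 (30.2 ± 3.57), Slc25a20 (28.7 ± 2.87), Crat (23.7 ± 4.99) and Slc22a5 (19.7 ± 4.13 CPM per kb) overlapped each with the next, so that the gap below Bbox1 seen in vehicle livers was absent. Cpt1b remained the least abundant at 1.48 ± 0.450 CPM per kb.

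Ratios of 2 members within a mouse asked whether steps of the pathway moved by different amounts, with a two-sided exact permutation test over the 8 mice, whose smallest possible p is 0.0286, adjusted over 4 ratios. The outer against the inner membrane enzyme, Cpt1a to Cpt2, hardly moved (log2 difference -0.014, exact permutation p = 0.943, adjusted 0.943), and the groups overlapped. The carrier against the inner membrane enzyme, Slc25a20 to Cpt2, was higher by 0.26 (log2) in ISOGK mice with overlapping groups (exact permutation p = 0.0571, adjusted 0.0762). The short-chain against the long-chain enzyme, Crat to Cpt2, went from -1.51 ± 0.262 to -0.64 ± 0.219 on the log2 scale, 1.83-fold higher in ISOGK mice. Uptake against synthesis, Slc22a5 to Bbox1, went from -2.18 ± 0.267 to -1.15 ± 0.348, 2.05-fold higher. In each of these last ratios every ISOGK mouse was above every vehicle mouse and the exact permutation p was 0.0286. None of the 4 ratios passed 0.05 after adjustment (0.0571 for these 2). With 2 of 4 ratios at the smallest possible p, the adjustment allows no lower value, so it cannot decide for them. A ratio describes unequal change of 2 members and does not show that either stayed constant.

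**Figure D3:**
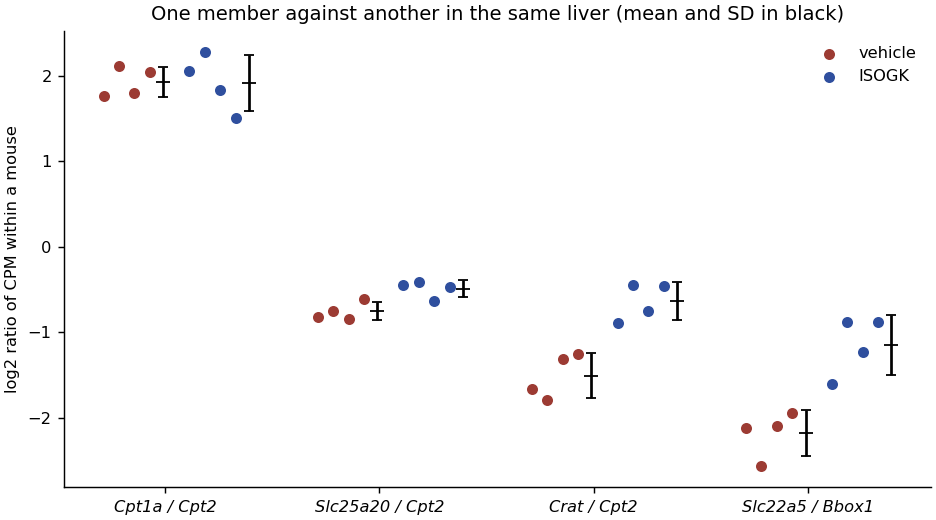
Log2 ratio of the CPM of one gene to another within each vehicle (red) and ISOGK (blue) mouse, with the group mean and SD in black. The points of the groups are interleaved for Cpt1a to Cpt2, nearly separate for Slc25a20 to Cpt2, and separate for Crat to Cpt2 and Slc22a5 to Bbox1.

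Several members shared their highest and lowest mice. Among vehicle livers, mouse 2 was lowest for 5 members (Cpt1a, Cpt2, Crat, Slc25a20 and Slc22a5) and mouse 4 highest for 6. Among ISOGK livers, mouse 2 was highest for 6 members (Cpt1a, Cpt2, Crat, Slc25a20, Slc22a5 and Aldh9a1) and lowest for Cpt1b. Relative to the vehicle mean, ISOGK mouse 2 had 2.02 times as much Cpt1a, 3.22 times as much Crat and 2.84 times as much Slc22a5, whereas ISOGK mouse 1 had 1.45, 1.99 and 1.78 times as much. Not every member followed: ISOGK mouse 4 had the least Cpt1a (1.15 times the vehicle mean), Bbox1 and Aldh9a1 of the ISOGK mice but 3.11 times the vehicle mean of Crat and 2.28 times that of Slc22a5, and vehicle mouse 4 was the lowest vehicle mouse for Bbox1. The low rank of ISOGK mouse 2 for Cpt1b was not seen in Gm44502, of which it had the most, and the summed counts of both ran only from 171 to 204 among the ISOGK mice. For Slc22a5, a member with the smallest adjusted p, the genes with the most similar profile were Paqr9, Nudt18 and Hsdl2. Their centred log2 CPM differed from that of Slc22a5 by a root mean square of 0.119, 0.152 and 0.165 over the 8 mice. These profiles include the difference between the groups, so similar log2 fold changes (1.24, 1.19 and 1.14) follow from the way the genes were picked.

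Around the shuttle, Crot was the called gene among the other carnitine genes. Crot, the peroxisomal carnitine octanoyltransferase that prepares medium-chain products of peroxisomal oxidation for export, had 529 ± 72.8 CPM in vehicle and 903 ± 147 CPM in ISOGK mice (log2 fold change 0.77, SE 0.14, edgeR adjusted p = 0.00651). None of the other 4 genes tested in this list of 8 was called, which leaves changes within their intervals possible, and the median log2 fold change of the 5 was -0.019. The remaining 3 of that list had at most 12 counts in any library and were not tested. Of 5 genes that form or remove malonyl-CoA, the inhibitor of CPT1, 2 were called lower, against 3.44% of all genes tested. Of the same 5, 0 were called higher, against 4.11%. Acaca, which makes malonyl-CoA in the cytosol, went from 86.1 ± 12.3 to 51.0 ± 9.16 CPM (log2 fold change -0.75, edgeR adjusted p = 0.00801). Fasn, which encodes the enzyme that builds palmitate from malonyl-CoA, went from 113 ± 21.6 to 54.4 ± 6.94 CPM (log2 fold change -1.06, edgeR adjusted p = 0.00163). The other 3 genes of that list were not called, and the list's median log2 fold change was -0.12. Acaca makes malonyl-CoA whereas Fasn uses it, and the level of malonyl-CoA was not measured here.

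**Figure D4:**
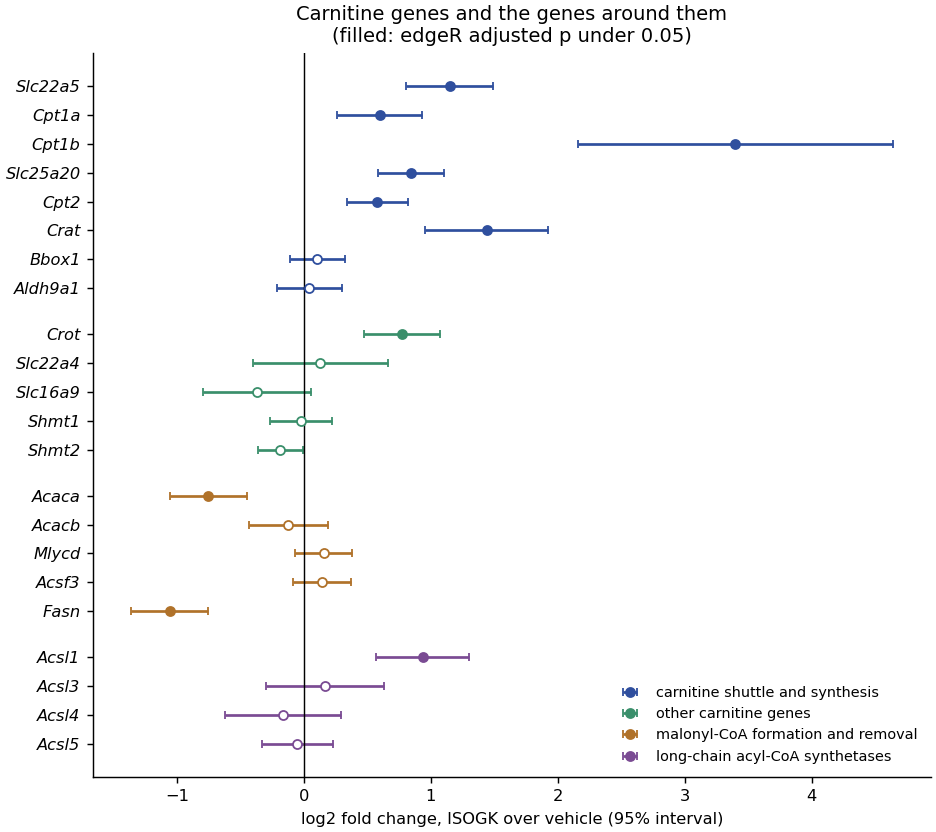
Log2 fold change of ISOGK over vehicle with its 95% interval for the 8 measured carnitine shuttle and synthesis genes (blue) and all tested genes of 3 related lists, where filled circles mark an edgeR adjusted p under 0.05. The blue filled circles all lie to the right of 0, and among the related genes Crot and Acsl1 lie to the right and Acaca and Fasn to the left.

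Steps before and after the shuttle were counted in the same fit. Over all genes tested in it, 4.11% were called higher and 3.44% lower, and the median log2 fold change was 0.0018. Of 4 tested long-chain acyl-CoA synthetases, which activate the fatty acids that CPT1 uses, Acsl1 alone was called, going from 849 ± 168 to 1623 ± 308 CPM (log2 fold change 0.94, edgeR adjusted p = 0.00743). Of 15 mitochondrial beta-oxidation genes, 8 rose and 0 fell, and the list's median was 0.40 (log2 fold change). The 5 with the smallest adjusted p were Etfdh (0.74), which passes electrons from acyl-CoA dehydrogenases to ubiquinone, Decr1 (0.81) and Eci2 (0.66), which handle unsaturated chains, and Hadhb (0.61) and Hadha (0.56), the subunits of the trifunctional protein. Of 10 peroxisomal beta-oxidation genes, 8 were higher and 0 lower (median 0.65), Ehhadh the most clearly, with a log2 fold change of 2.57 and an edgeR adjusted p of 4.65e-07. Of 12 well-known PPAR alpha targets outside the carnitine genes, 10 were higher and 0 lower (median 1.56), and 3 of these 12 also stand in the beta-oxidation lists. Of 6 genes for PPAR alpha and its partners, 0 were called in either direction (median -0.042). These lists were chosen with earlier results of these data known and are descriptions beside the members.

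Markers of other tissues were read beside the members, since several members are abundant in muscle, heart and fat. All 13 skeletal muscle markers were highest in vehicle mouse 4, with 19 to 451 counts each against at most 9 in any other library. Their summed level was 86.7 CPM in that mouse, at most 0.662 in the other vehicle mice and 0.283 to 0.638 in ISOGK mice. Vehicle mouse 4 was also the highest vehicle mouse for 6 members (Cpt1a, Cpt1b, Crat, Slc25a20, Slc22a5 and Aldh9a1). Without that mouse all 6 called members remained called, with log2 fold changes of 3.95 for Cpt1b, 1.55 for Crat, 1.20 for Slc22a5, 0.93 for Slc25a20, 0.67 for Cpt1a and 0.61 for Cpt2 (edgeR adjusted p from 0.00426 to 0.0484). The 3 heart markers present (of 5) summed to 0.134 to 0.545 CPM in vehicle and 0.422 to 1.62 CPM in ISOGK mice, at 3 to 31 counts in all, with no row for Myh6 and Nppa. Of brown fat markers 4 of 5 had a row, Ucp1 had none, and their sum was 109 to 238 against 229 to 418 CPM. Nearly all of that sum was Elovl3, which liver also expresses, while Cox8b had at most 1 count in any library. Only 1 of 5 white fat markers and 0 of 3 kidney markers had a row. Their part in the results was not tested.

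Within the liver, 0 of 6 hepatocyte markers were called, and their sum was 143888 to 156102 CPM in vehicle and 132550 to 169751 CPM in ISOGK mice. None of the tested markers of Kupffer cells (5), endothelium (4) or stellate cells (4) was called. The Kupffer cell sum was 879 to 1052 CPM in vehicle and 696 to 905 in ISOGK mice. Most of that sum was Cd5l, with a mean of 629 CPM in vehicle and 480 CPM in ISOGK mice (edgeR adjusted p = 0.0639). Of the 5 Kupffer cell markers, 4 had a negative and 1 a positive log2 fold change (median -0.51). Vsig4 had 102 counts in ISOGK mouse 4 against 1422 to 1682 in the other ISOGK libraries. Sox9 was the called marker among 4 of cholangiocytes, whose sum was 6.12 to 7.59 against 7.70 to 14.1 CPM. S100a9 was the called marker among 4 tested leukocyte markers. The sum of all 5 leukocyte markers, with the untested Cd3e, was 9.33 to 21.5 against 10.8 to 28.2 CPM. In whole liver, a change in the number of cells of a type and a change in RNA per cell cannot be told apart.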

How the data were processed

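Liver RNA of 4 vehicle and 4 ISOGK mice was sequenced as single-end reads from SMARTER mRNA-Seq libraries. Per the study's methods, the authors aligned reads with HISAT2 (2.0.5) and counted genes with StringTie (1.3.3b); per the labels the build was mm10. The deposited values are raw counts per gene symbol. The annotation release, the strand setting and any gene filter were not given in the sources used here. The authors' DESeq2-normalized values were not used.

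Genes were kept with edgeR's filterByExpr (minimum count 10, total 15), scaled by TMM and tested with the robust quasi-likelihood test (edgeR 4.0.16, R 4.3.3) on all 8 libraries, with Benjamini-Hochberg adjustment over 12307 genes. CPM are TMM-scaled, and ratios used a prior count of 2. DESeq2 (1.42.0), limma-voom (3.58.1), other scalings and filters, a replicate block and leaving out each mouse were alternatives. The design named 5 ratios, and the one with Tmlhe could not be computed. Replicate numbers did not pair the mice. Gene positions are from GENCODE M21 (GRCm38).

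Named were all members, called genes of the fixed lists (at most 5 each, by adjusted p), genes that overlap or directly neighbour a called member where their count bears on it, and the 3 genes most like the member with the smallest adjusted p (Slc22a5 and Slc25a20 tied; the unadjusted p decided). One plot shows every tested gene of 3 lists. Among markers, the genes singled out, and Apoe and Saa2, were named after their values were seen. The members and lists were chosen with earlier results of these data known.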

Additional observations from a re-analysis of the deposited data

Results flagged for a closer look

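Of 52 groups of 4 values examined, 3 held a value set far apart from the other 3, where chance gives about 1 in 20, or 2.6 groups. Cpt2 in vehicle mouse 2 was 105.9 CPM, and the nearest vehicle mouse had 138 CPM. Slc22a5 in the same mouse was 21.1 CPM, and the nearest had 28.6 CPM. Both genes remained higher in ISOGK livers without that mouse, with log2 fold changes of 0.49 and 1.04 (edgeR adjusted p = 0.0302 and 0.00621). The summed level of 13 skeletal muscle markers in vehicle mouse 4 was 86.7 CPM, and the nearest vehicle mouse had 0.662 CPM.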

How the results depend on the processing

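Under 16 alternatives, 5 or 6 members were higher in ISOGK and 0 lower. Cpt2, Crat, Slc25a20 and Slc22a5 kept their calls in all 16, and Cpt1b in the 15 that tested it, since a minimum of 10 counts in every library removed it. Cpt1a lost its call in 7 of 16 (adjusted p from 0.00526 to 0.118 over the 16). A replicate block, fitted although same-numbered mice did not deviate together (correlations -0.014 to 0.085; 1 of 4 vehicle mice correlated best with its own number), gave Cpt1a 0.57 with an edgeR adjusted p of 0.0776 and changed no other member's call. Scaling by library totals alone moved the median of all genes to -0.13, and with it Bbox1 turned to -0.019 and Aldh9a1 to -0.078. Leaving out each mouse in turn gave -0.035 to 0.13 for Aldh9a1, and -0.134 to 0.124 for the log2 ratio of Cpt1a to Cpt2. The number of all genes called higher ran from 219 to 765 and lower from 160 to 804, the highest with DESeq2 (765) and library totals alone (804). Depth limits Cpt1b most, with 0 to 21 counts in vehicle libraries.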
